A study of Homo sapiens with 12 samples.

Results

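The comparison described here is that of U2OS cells given 10 µM TH10785 together with 10 µM PNKP1i for 24 h against U2OS cells given the solvent DMSO for 24 h, with 3 libraries in each group. These 6 libraries were picked by their treatment labels from the 12 of the series, whose other 6 are 3 libraries with 10 µM TH10785 alone and 3 with 10 µM PNKP1i alone. The comparison was made across the 17290 genes with enough counts to test, of 58735 in the count table. RNA was measured by sequencing of 150-bp read pairs, and levels are given as CPM, counts per 1000000 counts of a library after TMM scaling between libraries, with no correction for gene length. The cells, a human line, were grown in DMEM with 10% serum in every group. The compound is written TH10785 in the sample labels and TH10587 in the series record, and the labels' spelling is used here. Whether the 3 replicates of a group were separate cultures is not stated, so each p-value reflects the spread among these libraries alone, and that spread may be technical.

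OGG1 is the DNA glycosylase that cuts oxidised guanine out of DNA and so starts base excision repair, and TH10785 is a small molecule that activates it. PNKP1i, the other compound, is named here as the labels give it. U2OS is a line grown from a human osteosarcoma, a bone tumour. A transcriptome is a sum over cells: in such bulk RNA, fewer cells of a kind and less RNA per cell cannot be told apart.

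The libraries held mesenchymal and matrix genes as the line's label would have it. SPARC, a bone matrix glycoprotein, averaged 985 ± 196 CPM with both compounds and 1855 ± 107 CPM in DMSO (SD, n = 3 each). The intermediate filament gene VIM averaged 702 ± 19.3 CPM with both compounds and 1057 ± 103 CPM in DMSO. RUNX2, the osteoblast transcription factor, averaged 16.7 ± 1.86 CPM with both compounds and 28.2 ± 3.52 CPM in DMSO. In all 3 genes every library with both compounds lay below every DMSO library. Of 8 markers of the line, COL1A2 and TWIST1 were below the filter on low counts. Of the 6 tested, 3 fell, 1 rose and the others were not called. Of 14 markers of other cell types, 7 were below that filter, among them PTPRC, CD3E, CD14, HBB, ALB and MYOD1. Among the other 7, SYP, a synaptic vesicle protein, rose, at 6.03 ± 0.795 CPM with both compounds and 2.66 ± 0.881 CPM in DMSO (log2 fold change 1.18, SE 0.24, adjusted p = 0.00122).

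Of the 17290 genes tested, 7091 changed with both compounds against DMSO at an adjusted p under 0.05 (edgeR quasi-likelihood F test, two-sided, Benjamini-Hochberg), which is 41.0%. There were 3679 genes that rose (21.3%) and 3412 that fell (19.7%). Each count of list members given below is to be read beside these shares. The change was at least 2-fold for 1312 of the rises and 953 of the falls, and at least 4-fold for 179 rises and 158 falls. The median log2 fold change over all tested genes was 0.045. In 4918 genes all 3 libraries with both compounds lay above all 3 DMSO libraries, and in 4357 they lay below. Together these are more genes than the 7091 called, so groups that do not overlap were common and are a weaker mark than a call. Against TH10785 alone 7317 genes were called (42.3%), and against PNKP1i alone 7944 (45.9%). These 3 comparisons share the libraries with both compounds.

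**Figure D1:**
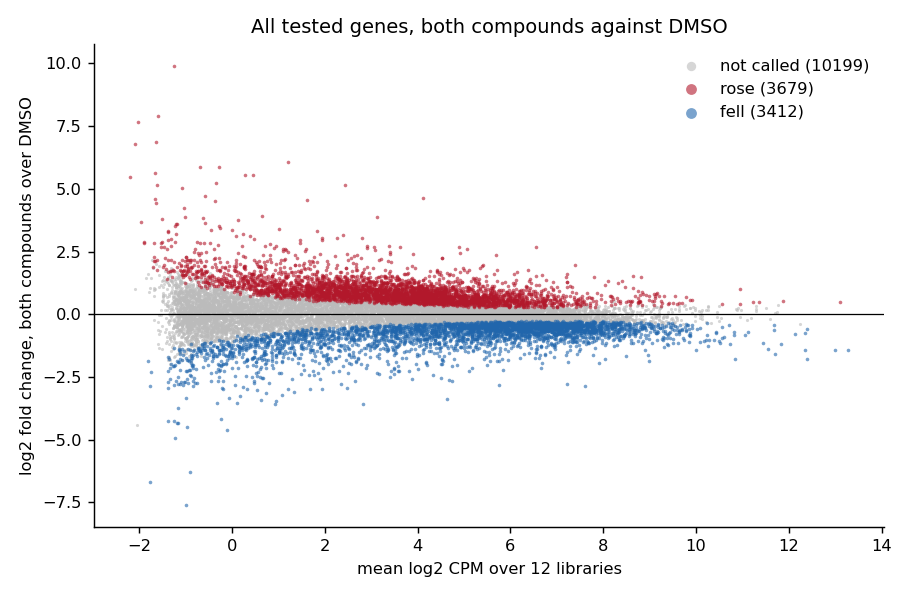
Log2 fold change of both compounds over DMSO for each of the 17290 tested genes (y axis) against its mean log2 CPM over the 12 libraries (x axis). Red points are the 3679 genes that rose, blue points the 3412 that fell and grey points the genes not called. Among the most abundant genes, at the right, blue points outnumber red ones.

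The libraries did not all behave alike. Depth was 18187651 to 19603594 counts with both compounds and 16547236 to 19242525 with DMSO. Genes with at least 1 count numbered 25184 to 26378 with both compounds and 23908 to 24256 with DMSO. On the first principal component, which carried 50.4% of the variance, the 3 libraries with both compounds stood at 88.6, 47.7 and 66.9 and the other 9 below 0. Replicate 1 with both compounds was the most extreme: it was the highest of its group in 50.6% of the rises and the lowest in 64.4% of the falls. Without it 5645 genes were called, and 2810 rises and 2672 falls of the full comparison were among them. TH10785 replicate 3 stood apart at the other end, and its counts enter the shared estimate of spread: without it 8427 genes were called.

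The direction of change moved with the GC content of the gene. Genes that rose had a median GC content of 41.9%, genes that fell 56.7% and all tested genes 49.3%. Of the 2376 genes under 40% GC, 53.1% rose and 1.94% fell, and of the 2602 genes over 60% GC, 4.38% rose and 40.2% fell. All 3 libraries with both compounds showed this slope, and TH10785 replicates 1 and 2 had a shallower one of the same sign. TH10785 replicate 3 had the opposite slope, as, less steeply, had PNKP1i replicates 1 and 3. When each library was corrected for GC content and transcript length by offsets, 16.6% of genes rose and 17.5% fell. The correction kept 2018 of the 3679 rises and 2229 of the 3412 falls. The part of GC content in the results was not tested beyond that correction, and the corrected counts are given beside gene groups where they differ by over 1.5 times. Some group medians shrank under the correction: from 0.38 to 0.05 for nuclear genes of mitochondrial gene expression and from 0.38 to 0.07 for p53 targets. Collagens went from -0.69 to -0.24, initiation factors from 0.25 to 0.06 and heat shock genes from 0.4 to 0.12.

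**Figure D2:**
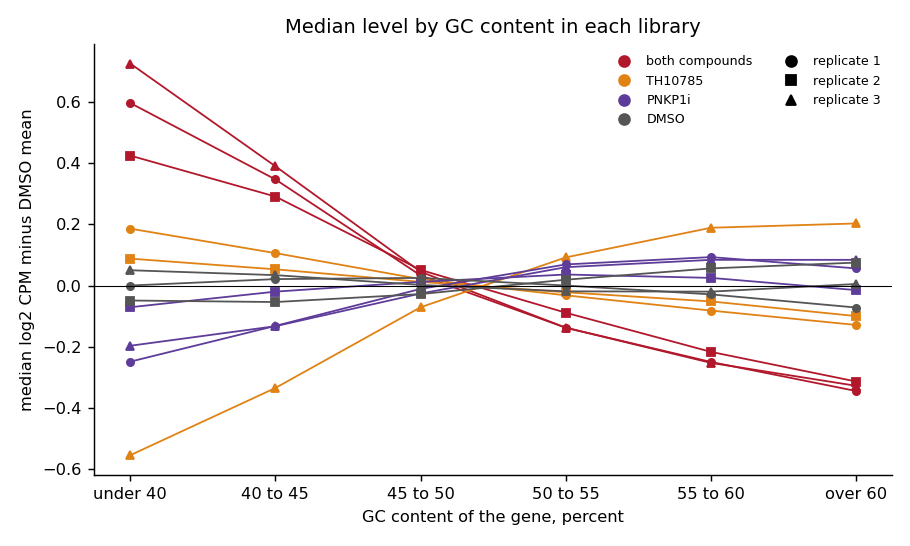
Median log2 CPM minus the DMSO mean (y axis) of genes binned by GC content (x axis), with a line for each of the 12 libraries, coloured by group. In genes under 40% GC the libraries with both compounds stand 0.425 to 0.726 above the DMSO mean, and TH10785 replicate 3 stands 0.555 below it.

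The gene of the glycosylase that TH10785 activates was lower with both compounds. OGG1 (chromosome 3, 9749944 to 9788219, plus strand, GRCh38) had 33.1, 40.9 and 36.7 CPM in the 3 libraries with both compounds, against 54.8, 54.2 and 46.6 CPM with DMSO. Every library with both compounds lay below every DMSO library, and the log2 fold change was -0.49 (SE 0.13, adjusted p = 0.00723). OGG1 was also lower with both compounds than with TH10785 alone (log2 fold change -0.49, adjusted p = 0.00682) and than with PNKP1i alone (-0.61, adjusted p = 0.00154).

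Falls outnumbered rises among the genes that repair damaged bases and broken single strands. Of 34 tested, 10 fell and 2 rose, with a median log2 fold change of -0.05, where 19.7% of all genes fell. LIG1, the ligase of replication and long-patch repair, had 97.2, 132 and 122 CPM with both compounds and 192, 220 and 206 CPM with DMSO (log2 fold change -0.81, SE 0.13, adjusted p = 0.000216). XRCC1, the scaffold of single-strand break repair, had 45.1, 48.1 and 46.9 CPM with both compounds and 67.7, 75.9 and 65.8 CPM with DMSO (-0.58, SE 0.11, adjusted p = 0.000678). In both genes the groups were apart. UNG, the uracil glycosylase, and APEX2, an apurinic endonuclease, also fell, by -0.52 and -0.56. The exceptions were APLF (1.19) and TDP2 (0.52), neither of which was called after the GC correction, under which 6 members rose and 11 fell. The call of APLF was also lost without DMSO replicate 2 or replicate 1 with both compounds, and that of TDP2 without any 1 of the DMSO libraries or without replicate 2 or 3 with both compounds. Without TH10785 replicate 3 in the fit 8 members rose, without TH10785 replicate 1 there were 4, and without DMSO replicate 2 none.

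Genes of double-strand break repair and its checkpoint were mixed: 15 of 36 rose (41.7%) and 6 fell (16.7%), with a median of 0.25. Their median GC content was 43.6%, and of all tested genes at 40% to 45% GC 36.3% rose and 5.76% fell. With GC and length offsets 9 members rose and 6 fell. Without replicate 3 with both compounds 9 rose. NBN, of the break-sensing MRN complex, averaged 20.4 ± 3.62 CPM with both compounds and 8.8 ± 0.59 CPM with DMSO (log2 fold change 1.21, SE 0.26, adjusted p = 0.00155). RAD54L, a motor protein of homologous recombination, averaged 27 ± 3.04 CPM with both compounds and 45.8 ± 4.34 CPM with DMSO (-0.76, SE 0.13, adjusted p = 0.000303). Of 28 p53 targets, 13 rose (46.4%) and 6 fell (21.4%), where 21.3% and 19.7% of all genes did. The median of these targets was 0.38. With GC and length offsets 10 rose and 6 fell, with a median of 0.07. PMAIP1, which encodes the pro-death protein NOXA, had 59, 43.3 and 52.3 CPM with both compounds and 17.8, 17.1 and 17.8 CPM with DMSO (1.55, adjusted p = 2.86e-05). GADD45A, a growth arrest gene, had 164, 128 and 124 CPM with both compounds and 58.9, 62.6 and 70.7 CPM with DMSO (1.11, adjusted p = 1.22e-05). Both rose in every library. BTG2, an antiproliferative p53 target, fell (-0.82, adjusted p = 6.57e-05), as did the p53 targets CDKN1A, BAX, DDB2, POLH and FDXR.

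Among called genes whose log2 CPM averaged 1 or more over the 12 libraries and whose groups were apart, the largest rise belonged to OLAH, a thioesterase that releases fatty acids from fatty acid synthase. It had 65.2, 20.1 and 20.8 CPM with both compounds and 0.239, 0.183 and 1.07 CPM with DMSO, with 1.53, 1.4 and 0.721 CPM under TH10785 alone and 1.01, 1.94 and 1.53 CPM under PNKP1i alone. The libraries with both compounds alone were above 2 CPM, and the first of them was about 3 times the others. OLAH thus reached the level set for this ranking only through the libraries with both compounds, so its rank is no independent support. The log2 fold change was 6.08 (SE 0.56, adjusted p = 2.08e-06), 5.30 without that library and 7.34 without DMSO replicate 3. MMP3, a secreted protease that cuts matrix, had 299, 68.1 and 70.4 CPM with both compounds and 5.33, 6.05 and 6.42 CPM with DMSO, and again replicate 1 was far above the others. Its log2 fold change was 4.62 over DMSO (3.55 without replicate 1), 3.80 over TH10785 alone and 3.51 over PNKP1i alone. OSCAR, an immunoglobulin-like receptor known from osteoclasts, had 76.4, 27.7 and 35.4 CPM with both compounds and 0.957, 1.34 and 1.61 CPM with DMSO (5.14, SE 0.35, adjusted p = 1.87e-07). SCG5, a secretory granule protein, had 30.1, 17.4 and 17.6 CPM with both compounds and 0.838, 1.16 and 0.749 CPM with DMSO (4.56, SE 0.32, adjusted p = 2.69e-07). OSCAR and SCG5 were under 2 CPM in every DMSO library, so they too could reach that level only through treated libraries.

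The rest of the 15 largest rises ranged from 3.88 for RPLP0P2, a ribosomal protein pseudogene whose reads may come from its parent gene, to 2.73 for ITGA2, a collagen-binding integrin subunit. Several encode secreted or immune proteins: the pentraxin PTX3 (3.05), the iron-trapping lipocalin LCN2 (2.95), the peptide hormone SPX (3.04) and the lectin CD22 (3.32). TXNIP, which binds thioredoxin and limits glucose uptake, had 55.5, 24.8 and 23 CPM with both compounds and 4.19, 5.01 and 3.21 CPM with DMSO (3.06, SE 0.34, adjusted p = 9.23e-06). G0S2, an inhibitor of the lipase ATGL, rose by 2.84. TMEM154 (3.42), FBXL13 (3.16) and the gene listed as BX640514.2 (2.95) complete the 15. Without replicate 1 with both compounds the log2 fold change was 3.19 for RPLP0P2, 2.57 for CD22 and 2.33 for LCN2. All 15 were above every DMSO library in each library with both compounds, a condition of their choice, and all 15 were also called against each compound alone.

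The largest fall among genes at that level was that of ABCG1, which exports cholesterol to lipoproteins. It had 1.74, 1.36 and 1.45 CPM with both compounds, 12.4, 12.1 and 13 CPM with TH10785 alone, 5.24, 9.31 and 6.32 CPM with PNKP1i alone and 16.8, 18.8 and 18.1 CPM with DMSO. The 3 libraries with both compounds were close to each other and far below all others (log2 fold change -3.56, SE 0.22, adjusted p = 1.81e-07). PNKP1i alone also lowered ABCG1 against DMSO (-1.36, adjusted p = 0.0043), while TH10785 alone was at -0.52 (adjusted p = 0.224). The chemokine gene CXCL14 had 0.823, 8.58 and 6.97 CPM with both compounds and 53.4, 51.4 and 66.2 CPM with DMSO, lowest in replicate 1 (-3.38, SE 0.43, adjusted p = 3.1e-05). IGFBP5, which binds insulin-like growth factors, had 19, 62.7 and 84.6 CPM with both compounds and 362, 383 and 444 CPM with DMSO (-2.84, SE 0.38, adjusted p = 5.11e-05). HR, a nuclear receptor corepressor, had 20.1, 53.9 and 60.2 CPM with both compounds and 276, 318 and 328 CPM with DMSO (-2.78, SE 0.28, adjusted p = 3.55e-06).

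The other large falls included the keratin pair KRT5 (-2.96) and KRT14 (-2.78), known from basal epithelium, and the imprinted RNA H19 (-3.11). The neurotrophin receptor NTRK3 (-2.97), the retinol carrier receptor STRA6 (-2.65) and the fibrillar collagen COL3A1 (-2.80) fell as well. RNF43, a ubiquitin ligase that removes WNT receptors, fell by 3.23 on the log2 scale and stood at -4.07 without replicate 3 with both compounds. LGI3, CLIC3, NPFFR1 and PDLIM1 fell too, with log2 fold changes of -2.97, -2.92, -2.67 and -2.61 in that order. All 15 were called against each single compound too.

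**Figure D3:**
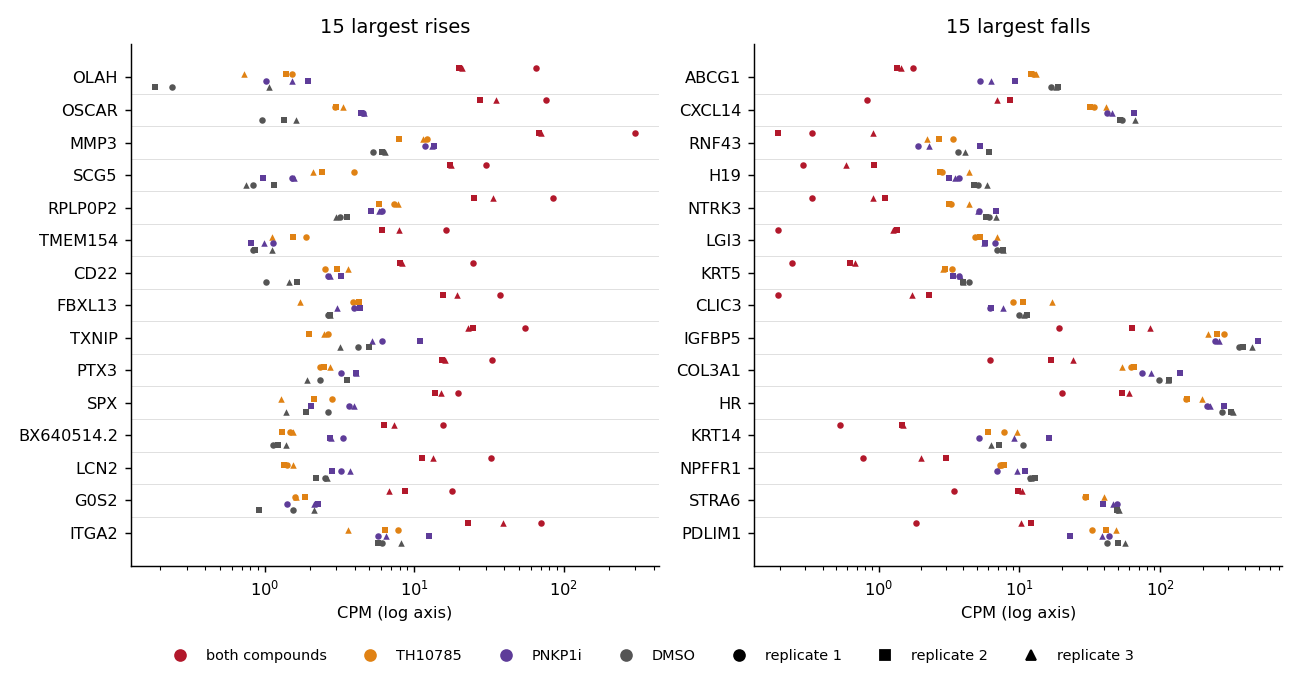
CPM on a log axis in each of the 12 libraries for the 15 genes with the largest rise (left) and the 15 with the largest fall (right) where log2 CPM averaged 1 or more over the libraries. Colours give the group and symbols the replicate. The red points, both compounds, stand to the right of all others in the left panel and to the left of all others in the right panel, and replicate 1 (circles) is often the outermost.

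Among abundant transcripts the largest changes in CPM were of another kind. ACTB, beta-actin, had 3660, 4574 and 4255 CPM with both compounds and 9550, 11970 and 12410 CPM with DMSO, with no overlap (log2 fold change -1.44, SE 0.17, adjusted p = 1.66e-05). ACTG1, gamma-actin, was at a log2 fold change of -1.17 and the glycolytic enzyme PKM at -0.74. EEF1A1, the translation elongation factor, averaged 9708 ± 942 CPM with both compounds and 6942 ± 1269 CPM with DMSO (0.48, adjusted p = 0.0188). TXNRD1, thioredoxin reductase, had 874, 810 and 754 CPM with both compounds and 286, 265 and 293 CPM with DMSO (1.53, SE 0.14, adjusted p = 2.35e-06), and VGF, a secreted neuropeptide precursor, was at 1.5. HMGA1 (0.51), FTL (0.48), HSPA8 (0.42) and EEF1A1 were each no longer called without DMSO replicate 2 or without DMSO replicate 3, and HMGA1 stood at 0.30 (adjusted p = 0.227) without replicate 1 with both compounds. EEF1A1, ACTB, ACTG1, HMGA1, FTL and HSPA8 have near-identical copies between which reads could be split.

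ATF4 is the main transcription factor that cells make more of when translation is braked by stress. It switches on genes for making, importing and charging amino acids, and often binds a joint site with a C/EBP protein. The promoters of 3 genes from these groups that rose are shown because each holds the letters of that site, TGATGNAAN, where N is any base. They are RefSeq promoters of build GRCh38.p14, from 250 bases before to 50 bases after the start, 5' to 3' on the gene's strand, with the match in capitals.
ASNS: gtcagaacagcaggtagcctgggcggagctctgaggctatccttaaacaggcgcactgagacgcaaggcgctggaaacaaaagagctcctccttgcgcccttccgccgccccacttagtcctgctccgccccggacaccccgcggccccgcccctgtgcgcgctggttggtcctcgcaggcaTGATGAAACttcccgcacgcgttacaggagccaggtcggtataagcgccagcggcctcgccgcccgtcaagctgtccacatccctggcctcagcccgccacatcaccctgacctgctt
CHAC1: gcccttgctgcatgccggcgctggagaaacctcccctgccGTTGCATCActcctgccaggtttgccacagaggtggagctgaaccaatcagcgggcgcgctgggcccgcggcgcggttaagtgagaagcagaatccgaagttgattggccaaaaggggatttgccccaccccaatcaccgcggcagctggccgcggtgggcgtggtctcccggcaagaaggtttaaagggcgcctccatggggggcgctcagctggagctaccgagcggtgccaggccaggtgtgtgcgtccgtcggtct
NARS1: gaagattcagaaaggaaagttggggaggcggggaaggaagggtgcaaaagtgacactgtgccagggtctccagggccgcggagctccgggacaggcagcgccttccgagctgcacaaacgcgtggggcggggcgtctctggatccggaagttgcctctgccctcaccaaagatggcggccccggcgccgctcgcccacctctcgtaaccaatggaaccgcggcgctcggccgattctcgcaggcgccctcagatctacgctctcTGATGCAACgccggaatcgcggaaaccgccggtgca
They lie at chr7:97872359-97872658 on the minus strand, chr15:40953221-40953520 on the plus strand and chr18:57621787-57622086 on the minus strand. The match covers bases 183 to 191 in ASNS and 265 to 273 in NARS1, and in CHAC1 it reads on the opposite strand at bases 41 to 49. Searched on both strands, the letters were in 1.81% of the 11914 tested genes' promoters that the table holds, in 2.96% of 2732 promoters of genes that rose and in 0.982% of 2546 of genes that fell. Among promoters of cytosolic aminoacyl-tRNA synthetases, 6 of 16 held them (AARS1, CARS1, IARS1, MARS1, NARS1 and TARS1), and among promoters of the ATF4 stress genes 4 of 18. The match is a description of letters, not of binding.

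Of 20 ATF4-linked transcription factors and stress effectors, 18 rose and none fell with both compounds, where 21.3% of all genes rose, and their median log2 fold change was 1.40 against 0.045 over all genes. The largest rise among them was that of TRIB3, a pseudokinase that feeds back on ATF4, at 298 ± 171 CPM with both compounds and 45.8 ± 3.73 CPM with DMSO (2.70, SE 0.28, adjusted p = 5.4e-06). CHAC1, which degrades glutathione, had 79.9, 74.6 and 74.4 CPM with both compounds and 20.2, 22.7 and 21.2 CPM with DMSO, and its replicates were close to each other (1.84, SE 0.16, adjusted p = 1.58e-06). INHBE, a secreted activin subunit, had 19.1, 18.8 and 18.2 CPM with both compounds and 5.74, 6.05 and 5.25 CPM with DMSO. Its level under PNKP1i alone, 15, 13.6 and 14.7 CPM, was lower by less than the test could call (0.37 for both over PNKP1i alone, adjusted p = 0.0537). ATF4 itself averaged 902 ± 107 CPM with both compounds and 537 ± 92.5 CPM with DMSO (0.75, SE 0.15, adjusted p = 0.000923).

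Amino acid and one-carbon enzymes rose in 15 of 20 cases and fell in 2, with a median of 0.58. ASNS, asparagine synthetase, had 26.9, 19.8 and 21.4 CPM with both compounds, 5.76, 4.4 and 5.55 CPM with TH10785 alone, 12.6, 9.04 and 10.7 CPM with PNKP1i alone and 4.91, 3.24 and 3.37 CPM with DMSO. All 3 libraries with both compounds were above the rest (2.56 over DMSO, SE 0.21, adjusted p = 1.07e-06). ALDH1L2 and MTHFD2, of the mitochondrial folate pathway, were at 2.47 and 1.26. The 2 that fell, SHMT1 (-0.58) and MTHFD1 (-0.39), encode cytosolic enzymes of the folate pathway, and MTHFD1 was not called without replicate 1 with both compounds (adjusted p = 0.0579).

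Of 16 amino acid transporters, 11 rose and 1 fell, with a median of 0.76, and 2 fell with GC and length offsets. SLC7A11, the cystine importer, had 118, 67.2 and 93 CPM with both compounds and 16.8, 19.5 and 14.7 CPM with DMSO, highest in replicate 1 (2.45, SE 0.22, adjusted p = 1.9e-06). The glutamine carrier SLC1A5 averaged 604 ± 76.3 CPM with both compounds, 600 ± 84 CPM with PNKP1i alone and 321 ± 39 CPM with DMSO. Its difference from PNKP1i alone was 0.01 (adjusted p = 0.966) and from DMSO 0.91 (adjusted p = 0.00032). SLC7A8, which exchanges neutral amino acids, fell (-1.23, adjusted p = 0.00546).

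Of the 20 cytosolic aminoacyl-tRNA synthetases, which charge tRNAs, 14 rose and 2 fell, with a median of 0.60. NARS1 had 148, 129 and 144 CPM with both compounds and 53.4, 55.2 and 52.3 CPM with DMSO, and the groups were far apart (1.39, SE 0.17, adjusted p = 2.42e-05). It averaged 56.8 ± 18.1 CPM with TH10785 alone and 56 ± 2.4 CPM with PNKP1i alone, close to DMSO. TARS1 averaged 275 ± 8.78 CPM with both compounds, 144 ± 39.1 CPM with TH10785 alone, 132 ± 1.15 CPM with PNKP1i alone and 130 ± 2.28 CPM with DMSO. SARS1, by contrast, averaged 534 ± 64.8, 317 ± 37.6, 384 ± 30.4 and 248 ± 15.5 CPM in the same 4 groups. QARS1 (-0.44) and VARS1 (-0.47) fell, but without DMSO replicate 2 neither was called. The call of VARS1 was also lost under the GC correction (adjusted p = 0.919) and without any 1 of 5 other libraries.

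**Figure D4:**
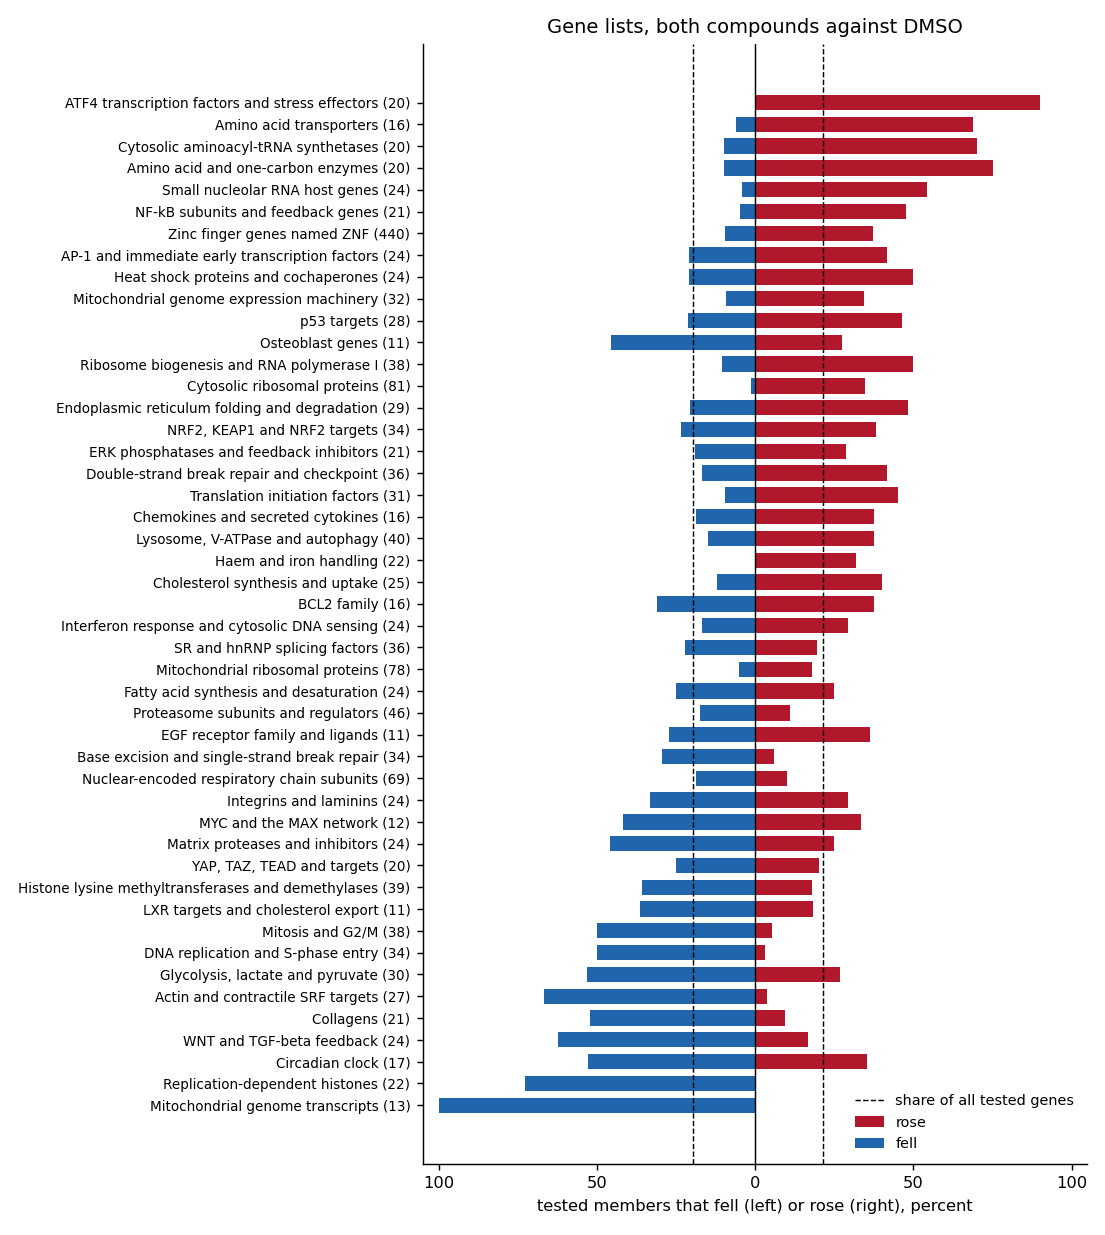
Share of the tested members of each gene list with at least 10 tested members that rose (red, right) or fell (blue, left) with both compounds against DMSO, ordered by median log2 fold change, with the number tested in brackets. Dashed lines mark the shares of all tested genes, 21.3% and 19.7%. Lists of amino acid supply stand at the top and mitochondrial mRNAs and histones at the bottom.

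NRF2 is the factor that answers oxidants and electrophiles. Of 34 genes of NRF2, its brake KEAP1 and their targets, 13 rose (38.2%) and 8 fell (23.5%), with a median of 0.30, and 5 fell without DMSO replicate 2. Besides SLC7A11 and TXNRD1, HMOX1, haem oxygenase, had 121, 88.2 and 77.5 CPM with both compounds and 41.7, 44.4 and 41.8 CPM with DMSO (1.17, SE 0.16, adjusted p = 6.69e-05). It averaged 82.8 ± 6.81 CPM with PNKP1i alone, and the difference of both compounds from that was 0.21 (adjusted p = 0.304). GCLC, the catalytic subunit that starts glutathione synthesis, had 92.5, 80.4 and 94.7 CPM with both compounds and 41.9, 36.8 and 43 CPM with DMSO (1.14, SE 0.16, adjusted p = 7.02e-05). Of 22 genes of haem and iron handling 7 rose (31.8%, where 21.3% of all genes did) and none fell. The mitochondrial iron importer SLC25A37 (0.96) and the transferrin receptor TFRC (0.81) were among the 7. Without DMSO replicate 2 there were 4 rises, and 1 member fell with GC and length offsets. Of 7 metallothionein and zinc genes 5 rose. MT2A, a metal-binding metallothionein, had 4112, 2391 and 2370 CPM with both compounds and 1119, 1562 and 1776 CPM with DMSO (0.99, SE 0.21, adjusted p = 0.00172).

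Genes of cholesterol synthesis and uptake did not move as one. Of 25, 10 rose and 3 fell with both compounds, with a median of 0.15, and 9 rose and none fell with GC and length offsets. MSMO1, a methylsterol oxidase, had 61.1, 69.8 and 74.9 CPM with both compounds, 108, 118 and 80.2 CPM with TH10785 alone, 32.7, 35.4 and 27 CPM with PNKP1i alone and 35.4, 35.1 and 36.6 CPM with DMSO. It rose with both compounds (0.94, SE 0.14, adjusted p = 0.000134), though not under the GC correction (adjusted p = 0.078). LSS, which closes the sterol rings, had 96.2, 138 and 139 CPM with both compounds, 385, 395 and 478 CPM with TH10785 alone, 190, 152 and 170 CPM with PNKP1i alone and 178, 193 and 182 CPM with DMSO. It was thus lowest with both compounds and highest with TH10785 alone (-1.75 between them, SE 0.15, adjusted p = 2.2e-06, and -0.57 against DMSO, adjusted p = 0.00522, not called with offsets).

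SREBF1, the lipogenic member of the SREBP factors, was likewise lowest with both compounds and highest with TH10785 alone. It averaged 102 ± 5.39 CPM with both compounds, 316 ± 50.9 CPM with TH10785 alone, 182 ± 14.7 CPM with PNKP1i alone and 220 ± 18.2 CPM with DMSO (-1.11 against DMSO, adjusted p = 1.18e-05). FADS2, a fatty acid desaturase, was at -0.78 against DMSO and -1.68 against TH10785 alone. Of 24 genes of fatty acid synthesis and desaturation 6 rose and 6 fell, 25.0% each, where 21.3% and 19.7% of all genes did. ELOVL6, an elongase, was among those that rose (1.51, adjusted p = 9.25e-06). Without DMSO replicate 2 there were 2 rises, and without DMSO replicate 1 or replicate 3 with both compounds 3. Of 11 LXR targets and cholesterol export genes 4 fell and 2 rose. Besides ABCG1, MYLIP (-1.29) and LPCAT3 (-0.77) were among those that fell, and 1 rose under the GC correction or without any 1 of 9 libraries. LXR is the nuclear receptor that senses oxysterols, and MYLIP encodes the ligase that degrades the LDL receptor. NPC1, the lysosomal cholesterol transporter, rose (0.73), as did NPC2 (0.28, adjusted p = 0.0447), whose call was lost in 17 of the 24 alternatives, among them the fits without any 1 of the DMSO or PNKP1i libraries.

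The mRNAs of the mitochondrial genome fell, whereas its small rRNA rose. This genome is copied as long transcripts of each strand that are cut into rRNAs, tRNAs and 13 mRNAs for respiratory chain subunits. All 13 mRNAs fell, with a median log2 fold change of -1.39, from -1.80 for MT-CYB to -0.71 for MT-ND1. MT-ND6, the 1 mRNA of the other strand, had 127, 156 and 193 CPM with both compounds and 272, 351 and 416 CPM with DMSO (-1.13, SE 0.16, adjusted p = 7.71e-05). MT-CO1 (chromosome M, 5904 to 7445) had 3382, 5121 and 6092 CPM with both compounds and 10290, 12050 and 16750 CPM with DMSO, without overlap (-1.42, SE 0.21, adjusted p = 0.000118).

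The small rRNA MT-RNR1 (chromosome M, 648 to 1601) had 1462, 980 and 1090 CPM with both compounds, 705, 673 and 696 CPM with TH10785 alone, 1043, 1043 and 945 CPM with PNKP1i alone and 590, 747 and 857 CPM with DMSO. Every library with both compounds was above every DMSO library (0.69, SE 0.16, adjusted p = 0.00264). The large rRNA MT-RNR2 (chromosome M, 1671 to 3229) had 5657, 4208 and 4972 CPM with both compounds and 2692, 3453 and 4199 CPM with DMSO. Its groups nearly touched (0.52, SE 0.16, adjusted p = 0.018), and it was not called with GC and length offsets (0.06, adjusted p = 0.805), nor without DMSO replicate 1, DMSO replicate 2 or replicate 1 with both compounds. The share of all counts from chromosome M was 2.51% to 3.19% with both compounds and 4.24% to 6.8% with DMSO. Nuclear copies of mitochondrial sequence could take reads from these genes.

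**Figure D5:**
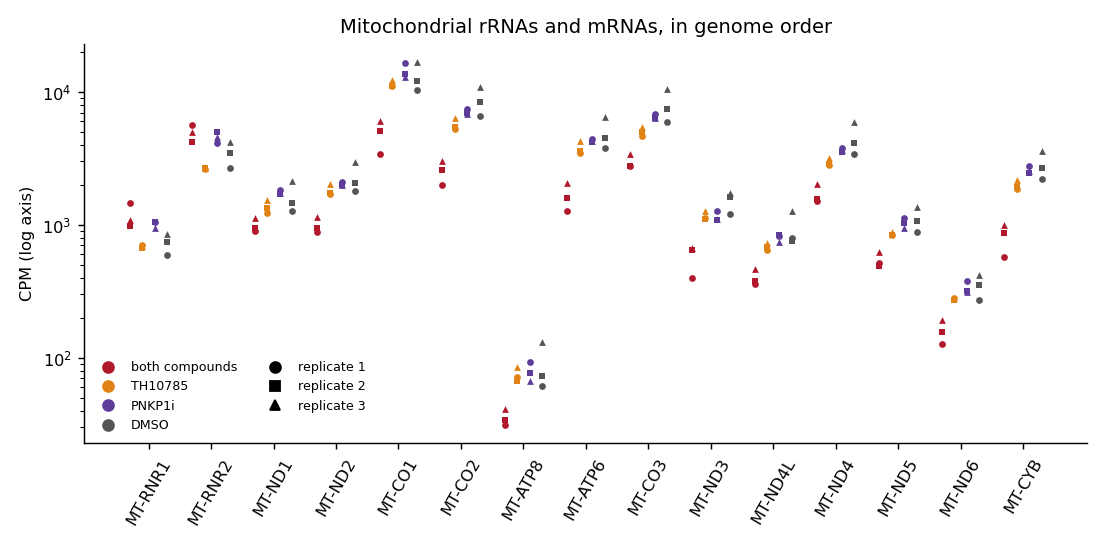
CPM on a log axis of the 2 mitochondrial rRNAs and 13 mRNAs, in the order of the genome, in the 12 libraries. Colours give the group and symbols the replicate. For the mRNAs the libraries with both compounds (red) are the lowest, and for MT-RNR1 they lie at 980 to 1462 CPM, above the DMSO libraries at 590 to 857 CPM.

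The nuclear genes for mitochondrial gene expression did not share that fall. Of 32, 11 rose (34.4%) and 3 fell, with a median of 0.38, or 0.05 with GC and length offsets. Their median GC content was 42.5%. Of all tested genes at 40% to 45% GC, 36.3% rose, also with a median of 0.38. TFAM, which packs and starts transcription of mitochondrial DNA, had 72.8, 63.2 and 77.6 CPM with both compounds and 34, 30.2 and 34.7 CPM with DMSO (1.11, SE 0.21, adjusted p = 0.000709). TFB2M, its partner in initiation, was at 1.02 and MTERF1, a terminator protein, at 1.3. POLG, the polymerase that copies mitochondrial DNA, fell (-0.53, adjusted p = 0.00171), but not under the GC correction (adjusted p = 0.109). Of 69 nuclear respiratory chain subunits 13 fell (18.8%) and 7 rose (10.1%), where 19.7% and 21.3% of all genes did. There were 15 falls and 3 rises with GC and length offsets, and 5 falls and 13 rises without replicate 1 with both compounds. Leaving out another library gave 7 to 20 falls, with 20 when replicate 2 with both compounds was left out, and as few as 3 rises without DMSO replicate 2. SDHA of complex II had 104, 131 and 123 CPM with both compounds and 256, 273 and 268 CPM with DMSO (-1.16, SE 0.12, adjusted p = 6.1e-06), and ATP5F1A of the ATP synthase was at -0.74. Of 78 mitochondrial ribosomal proteins 14 rose (17.9%) and 4 fell (5.13%), both below the shares of all genes. With GC and length offsets 3 rose and 8 fell, and 0 to 10 fell when 1 library was left out. There were 6 rises without DMSO replicate 2 and 9 without DMSO replicate 3 or without replicate 2 with both compounds.

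Among genes of the cell cycle falls outnumbered rises, and many members were not called. Of 34 genes of DNA replication and S-phase entry 17 fell and 1 rose, with a median of -0.34. POLD1, the lagging-strand polymerase, averaged 174 ± 19.7 CPM with both compounds and 295 ± 24.6 CPM with DMSO (-0.76, SE 0.14, adjusted p = 0.000587). The exception, ORC6, was near the threshold (0.40, adjusted p = 0.0489), and its call was lost under the GC correction and without any 1 of 8 libraries. Of 38 mitosis genes 19 fell and 2 rose, with a median of -0.31. PLK1, a mitotic kinase, had 96.1, 122 and 120 CPM with both compounds and 230, 271 and 274 CPM with DMSO (-1.20, SE 0.15, adjusted p = 1.92e-05). FOXM1, the transcription factor of G2, was at -1.05, ESPL1, the protease that frees sister chromatids, at -1.05, and KIF20A, a cytokinesis motor, at -1.17. MAD2L1 (0.64) and CDK1 (0.67) rose, but neither was called with GC and length offsets, where CDK1 was at -0.09, nor without replicate 3 with both compounds or any 1 of the DMSO libraries.

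Of 22 replication-dependent histone genes 16 fell and none rose, with a median of -1.32, and 11 fell without replicate 1 with both compounds. H2BC21 had 26.3, 37.9 and 41.5 CPM with both compounds and 96.7, 104 and 119 CPM with DMSO (-1.59, SE 0.14, adjusted p = 2e-06). H2BC11 averaged 19.9 ± 8.21 CPM with both compounds and 73.1 ± 17.1 CPM with DMSO (-1.87, adjusted p = 1.97e-05). These genes are near-identical to one another, so reads may be split among them, and most of their mRNAs lack a poly(A) tail.

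Genes of protein synthesis tended upward. Of 81 cytosolic ribosomal proteins 28 rose and 1 fell (2 fell with GC and length offsets), with a median of 0.32, but 15 rose without DMSO replicate 2, without DMSO replicate 3 or without replicate 2 with both compounds. RPL26 had 34.2, 54.8 and 42.6 CPM with both compounds and 22.9, 16.7 and 12.4 CPM with DMSO (1.34, SE 0.20, adjusted p = 0.000118); pseudogene copies make such counts uncertain. Of 38 genes of ribosome biogenesis and RNA polymerase I 19 rose and 4 fell, with a median of 0.35, with 12 rises without DMSO replicate 2 and 1 to 2 falls under the GC correction or without any 1 of 6 libraries. UBTF, which opens ribosomal DNA to transcription, was the clearest fall (-0.73, SE 0.12, adjusted p = 0.00019). Of 24 small nucleolar RNA host genes 13 rose and 1 fell, with a median of 0.50. GAS5, whose RNA is decayed when translated, had 175, 194 and 168 CPM with both compounds and 71.3, 44.8 and 40 CPM with DMSO (1.78, SE 0.17, adjusted p = 2.68e-06), and ZFAS1 was at 1.31. Of 31 initiation factors 14 rose and 3 fell (8 and 3 with GC and length offsets). EIF4EBP1, the repressor of the cap-binding protein, averaged 398 ± 55.6 CPM with both compounds, 320 ± 51.9 CPM with PNKP1i alone and 177 ± 11.4 CPM with DMSO (1.16, adjusted p = 4.63e-05), whereas its relative EIF4EBP2 fell (-0.56, adjusted p = 0.00043).

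NF-kB is a family of factors for inflammation and survival that induce their own inhibitors. The promoter of NFKBIZ, which encodes one such inhibitor-like regulator, is shown because the gene rose and its promoter holds the NF-kB consensus, in capitals at bases 28 to 37.
NFKBIZ: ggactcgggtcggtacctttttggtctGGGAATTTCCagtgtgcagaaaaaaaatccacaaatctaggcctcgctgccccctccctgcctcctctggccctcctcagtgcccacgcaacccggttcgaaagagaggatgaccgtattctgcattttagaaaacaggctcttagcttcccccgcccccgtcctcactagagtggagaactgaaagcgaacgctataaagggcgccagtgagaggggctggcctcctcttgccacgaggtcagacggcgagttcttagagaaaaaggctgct
It is the RefSeq promoter at chr3:101827740-101828039, plus strand, GRCh38.p14. The consensus, searched on both strands, was in 6.79% of the 11914 promoters, in 6.3% of those of genes that rose and in 7.58% of those of genes that fell. Of 19 promoters in the list of NF-kB subunits and feedback genes 7 held it (BCL3, BIRC3, NFKB1, NFKBIA, NFKBIZ, REL and TNFAIP3). NFKBIZ had 40.8, 21.6 and 29.3 CPM with both compounds and 7.6, 6.29 and 7.76 CPM with DMSO, while TH10785 alone averaged 7.59 ± 0.661 and PNKP1i alone 8.1 ± 0.937 CPM. Its libraries with both compounds were all above the rest (2.08, SE 0.21, adjusted p = 4.1e-06). Of the 21 members 10 rose and 1 fell, with a median of 0.49. BCL3, a nuclear cofactor, was the fall (-0.80, adjusted p = 0.000703).

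Of 16 chemokines and cytokines 6 rose (37.5%) and 3 fell (18.8%), where 21.3% and 19.7% of all genes did. The epithelial cytokine TSLP averaged 5.55 ± 3.83 CPM with both compounds and 0.829 ± 0.493 CPM with DMSO (2.71, SE 0.46, adjusted p = 0.000285), and its log2 fold change was 1.99 without replicate 1 with both compounds. CCL2, the monocyte chemokine, had 0.968, 1.55 and 1.54 CPM with both compounds and 5.68, 6.54 and 5.62 CPM with DMSO and fell in every library (-2.13, SE 0.27, adjusted p = 2.81e-05). Of 24 genes of the interferon response and DNA sensing 7 rose (29.2%) and 4 fell (16.7%), where 21.3% and 19.7% of all genes did. There were 4 rises under the GC correction, without DMSO replicate 2 or without replicate 3 with both compounds. Without DMSO replicate 1 or replicate 1 with both compounds there were 2 falls. TRIM25, a ubiquitin ligase of RNA sensing, was the clearest rise (1.09), and ISG15, the ubiquitin-like modifier, fell (-0.77, adjusted p = 0.0111), though not without DMSO replicate 1 or without replicate 1 or 3 with both compounds.

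Growth factor genes changed in both directions. EGFR had 68.3, 34.1 and 44.9 CPM with both compounds and 14.7, 15.5 and 16.1 CPM with DMSO (1.67, SE 0.20, adjusted p = 1.46e-05), and its ligand AREG had 18.7, 9.94 and 11.4 CPM with both compounds and 2.63, 3.05 and 3.1 CPM with DMSO (2.18, SE 0.24, adjusted p = 8.12e-06). ERBB2, a receptor partner of EGFR, had 63.6, 88.5 and 79.8 CPM with both compounds and 142, 160 and 150 CPM with DMSO (-0.97, SE 0.13, adjusted p = 4.71e-05). EGFR and AREG rose in every library and ERBB2 fell in every library. Of the 11 genes of that family 4 rose and 3 fell, with 1 fall without DMSO replicate 2 or DMSO replicate 3. Of 24 AP-1 and immediate early factors 10 rose and 5 fell, with 6 rises without replicate 1 with both compounds and 3 falls with GC and length offsets, and MAFF was the clearest (1.40, adjusted p = 0.000124). Of 21 ERK phosphatases and feedback inhibitors 6 rose (28.6%) and 4 fell (19.0%), where 21.3% and 19.7% of all genes did. ETV5 (0.96) and PHLDA1 (-1.26) were among them.

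The MYC relatives MYCN and MYCL fell, whereas MYC itself was called as a rise. MYCN, which is below the level set for the 15 largest falls, averaged 0.278 ± 0.23 CPM with both compounds and 3.09 ± 0.781 CPM with DMSO (-3.42, SE 0.43, adjusted p = 2.27e-05; -4.34 without replicate 3 with both compounds), and MYCL averaged 6.61 ± 0.539 and 19 ± 0.668 CPM in the same groups (-1.52, SE 0.15, adjusted p = 3.42e-06). MXD1, a MAX partner that opposes MYC, had 17.3, 5.33 and 5.65 CPM with both compounds and 2.27, 2.2 and 1.5 CPM with DMSO, with replicate 1 about 3 times the others (2.25, SE 0.40, adjusted p = 0.000423), and stood at 1.48 without it. Of the 12 genes of this network 4 rose (33.3%), MYC, MXD1, MXI1 and MGA, and 5 fell (41.7%).

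Most actin genes fell, and matrix genes were more mixed. Of 27 actin and contractile genes driven by SRF 18 fell and 1 rose, with a median of -0.60. MYL9, a myosin light chain, had 70, 139 and 130 CPM with both compounds and 355, 394 and 422 CPM with DMSO (-1.79, SE 0.21, adjusted p = 1.41e-05), and the actin-binding calponin CNN1 was at -1.76. FHL2 rose (0.43), though not without DMSO replicate 1 or replicate 1 with both compounds (0.28, adjusted p = 0.0902). Of 21 collagens 11 fell and 2 rose, with a median of -0.69, with 8 falls and 5 rises under the GC correction, and 4 rises without TH10785 replicate 1 or replicate 2 with both compounds. COL1A1, of the main bone collagen, had 573, 636 and 793 CPM with both compounds and 1373, 1659 and 1799 CPM with DMSO (-1.27, SE 0.15, adjusted p = 1.25e-05). COL13A1, a membrane collagen, had 56.3, 37.6 and 42 CPM with both compounds and 12.8, 14.5 and 12.3 CPM with DMSO and rose in every library (1.78, SE 0.16, adjusted p = 2e-06).

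Of 24 matrix proteases and inhibitors 11 fell (45.8%) and 6 rose (25.0%): MMP24 (-1.94), MMP15 (-1.52) and ADAM19 (-1.0) fell while MMP3 rose. Of 24 integrins and laminins 8 fell (33.3%) and 7 rose (29.2%), where 19.7% and 21.3% of all genes did. With GC and length offsets 4 fell and 6 rose. LAMA1, a laminin chain, was at 1.37 and ITGB4, of hemidesmosomes, at -1.06. Of 24 WNT and TGF-beta feedback genes 15 fell and 4 rose, with a median of -0.71. AXIN2, the general readout of WNT signalling, had 5.32, 9.84 and 8.73 CPM with both compounds and 22.6, 23.5 and 24.6 CPM with DMSO (-1.56, SE 0.22, adjusted p = 6.97e-05). NKD1 (-1.72) and NOTUM (-1.29), which limit WNT signalling, fell too. Of the rises, TGFBR1 (0.75) and SKIL (0.64) were not called with offsets, nor without replicate 3 with both compounds, and no member of this list rose without DMSO replicate 1 or without DMSO replicate 2. Of 20 YAP and TEAD genes 5 fell and 4 rose, with 3 falls without DMSO replicate 3 or replicate 3 with both compounds and 2 under the GC correction. The called YAP and TEAD genes included ANKRD1 (1.24) and CCN2 (0.73, and 0.46 without replicate 1 with both compounds), both YAP targets that rose.

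Of 30 genes of glycolysis, lactate and pyruvate 16 fell and 8 rose, with a median of -0.44; 10 fell and 7 rose with GC and length offsets, and 8 fell without DMSO replicate 2 and 10 without replicate 3 with both compounds. LDHA, which makes lactate, had 558, 946 and 732 CPM with both compounds and 1601, 1530 and 1400 CPM with DMSO (-1.02, SE 0.16, adjusted p = 0.000141). HK2, a hexokinase, had 110, 57.8 and 64.5 CPM with both compounds and 29, 31.9 and 36.5 CPM with DMSO (1.25, SE 0.19, adjusted p = 0.000119), and the lactate carrier SLC16A1 was at 1.11. The groups did not overlap for either LDHA or HK2.

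Circadian clock genes were 6 up (35.3%) and 9 down (52.9%) of 17, where 21.3% and 19.7% of all genes were. The median of the clock genes was -0.74, and 3 rose with GC and length offsets or without replicate 3 with both compounds. DBP, an output factor of the clock, had 12, 23.9 and 23.1 CPM with both compounds and 82, 99.9 and 95.6 CPM with DMSO (-2.23, SE 0.19, adjusted p = 1.39e-06). PER1 had 28.3, 24.2 and 28 CPM with both compounds and 62.4, 67.9 and 71.7 CPM with DMSO (-1.33, SE 0.12, adjusted p = 2e-06). The repressor PER2 (-1.18) and TEF, a relative of DBP (-1.38), fell as well.

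Of 16 BCL2 family genes 6 rose (37.5%) and 5 fell (31.2%), where 21.3% and 19.7% of all genes did. There were 3 falls without replicate 1 with both compounds. Of the pro-death members, BCL2L11, which encodes BIM, fell, with 18.5, 22.4 and 22.6 CPM with both compounds and 42.5, 40.9 and 46.4 CPM with DMSO (-1.03, adjusted p = 1.98e-05), and BMF with 2.76, 6.83 and 8.5 CPM with both compounds and 27.8, 28.1 and 25.4 CPM with DMSO (-2.16, adjusted p = 9.02e-05). BCL2A1, a survival protein, had 2.18, 1.16 and 0.678 CPM with both compounds and no counts in the 3 DMSO libraries, where 3 counts would be 0.161 to 0.183 CPM (adjusted p = 0.000134). Without DMSO counts, BCL2A1 could pass the filter on low counts only through treated libraries, so its adjusted p is no independent support. With PMAIP1 above, pro-death members thus moved in both directions.

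Protein folding genes were divided. Of 24 heat shock proteins and cochaperones 12 rose and 5 fell (9 and 1 with GC and length offsets; 7 rose without DMSO replicate 2). The 5 falls became 1 without DMSO replicate 2 or replicate 3 with both compounds, 2 without DMSO replicate 3, PNKP1i replicate 1 or PNKP1i replicate 3, and 3 without replicate 1 with both compounds. HSP90AA1, the stress-induced HSP90, had 678, 663 and 809 CPM with both compounds and 295, 275 and 287 CPM with DMSO (1.33, SE 0.25, adjusted p = 0.000607), and the small heat shock protein HSPB1 was at -1.04. Of 29 endoplasmic reticulum folding genes 14 rose and 6 fell, but 4 rose and 6 fell with GC and length offsets, and 8 rose without replicate 1 with both compounds, while 3 fell without replicate 3 with both compounds. CALR, a lectin chaperone, averaged 608 ± 40.8 CPM with both compounds and 1064 ± 63.5 CPM with DMSO (-0.81, SE 0.13, adjusted p = 0.000145). MANF, secreted under ER stress, had 37.2, 43.9 and 36.1 CPM with both compounds, 39.9, 43.2 and 43.5 CPM with PNKP1i alone and 73.7, 70.2 and 62.8 CPM with DMSO (-0.82, adjusted p = 6.61e-05; against PNKP1i alone -0.11, adjusted p = 0.457). XBP1 rose (0.94), though not with offsets (adjusted p = 0.156). Of 40 lysosome and autophagy genes 15 rose and 6 fell (3 fell with GC and length offsets, without DMSO replicate 2 or 3, or without replicate 2 or 3 with both compounds), with the receptor SQSTM1 at 0.91 and the lysosomal regulator TFEB at -0.97. Of 46 proteasome genes 5 rose (10.9%) and 8 fell (17.4%), both below the shares of all genes, 21.3% and 19.7%. There were 2 rises under the GC correction, and 3 to 9 rises and 4 to 10 falls when 1 library was left out.

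Of 440 genes named ZNF, mostly zinc finger repressors, 164 rose (37.3%) and 42 fell (9.55%), where 21.3% and 19.7% of all genes did. Their median GC content was 43.5%, and of all tested genes at 40% to 45% GC 36.3% rose and 5.76% fell. With GC and length offsets 96 ZNF genes rose and 31 fell. There were 102 rises without DMSO replicate 2 and 97 without replicate 3 with both compounds. Large falls among the ZNF genes, against the direction of most called members, were those of ZNF703 (-1.63) and ZNF503 (-1.78). Of 36 SR and hnRNP splicing factors 7 rose (19.4%) and 8 fell (22.2%), near the 21.3% and 19.7% of all genes. With offsets 2 rose and 20 fell, and 1 to 11 rose when 1 library was left out. HNRNPL fell under both (-0.86, and -0.80 with offsets). Of 39 histone methyltransferases and demethylases 7 rose and 14 fell (2 and 11 with offsets, and 3 to 4 rises without DMSO replicate 1 or 2 or without replicate 1 or 3 with both compounds), with KDM7A, a demethylase, at 2.60 and the LSD1 gene KDM1A at -0.71. Of 11 osteoblast genes 3 rose (27.3%) and 5 fell (45.5%). Besides SPARC and RUNX2, the alkaline phosphatase gene ALPP fell (-2.57), and the osteopontin gene SPP1 rose (1.75). ALPL, tissue alkaline phosphatase, had 12.2, 6.59 and 6.51 CPM with both compounds, 10.1, 9.11 and 13 CPM with TH10785 alone and 2.69, 3.36 and 3.05 CPM with DMSO (1.47 over DMSO, adjusted p = 0.000313). Of 6 aryl hydrocarbon receptor genes 1 rose and 2 fell, with none and 1 under the GC correction and without replicate 3 with both compounds.

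By type of gene, 22.9% of 13827 protein-coding genes rose and 22.6% fell. Of 976 lincRNA genes 16% rose and 10.9% fell, and of 270 transcribed unprocessed pseudogenes 28.9% rose and 4.81% fell. Of 20 snoRNA genes 7 rose and none fell. By level, 10.9% of the 659 genes with a mean log2 CPM over 8 rose and 46.7% fell, and of the 3627 genes between 2 and 4, 34.8% rose and 13.6% fell. The median GC content of these 2 classes was 54.0% and 45.5%.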

How the data were processed

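Raw gene counts of 12 libraries and a table of normalized values were deposited by the authors. Per the submitters' processing notes HISAT2 2.0.5, HTSeq 0.6.1 and DESeq2 1.30.1 were used with GRCh38. The count table was deposited by the authors as reads per gene, not normalized, for 58735 genes, with a strand setting not given in the sources used here. The deposited signal values, made by the authors by dividing counts by a size factor per library as the values show, served in 1 alternative only. Per the labels' protocols, total RNA was extracted with TRIzol and libraries were made with an NEBNext Ultra kit.

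Genes were filtered with filterByExpr (minimum count 10, minimum total 15), scaled by TMM, and tested with edgeR 4.0.16 (R 4.3.3) glmQLFit and glmQLFTest over the 12 libraries, which share 1 estimate of spread, with Benjamini-Hochberg adjustment over 17290 genes. The script was checked on simulated counts with no GC trend and far fewer changed genes, so that check does not cover those features of these data. Called means an adjusted p under 0.05. Depth was 16225339 to 21546369 counts, and the common biological coefficient of variation was 15.4%. Low counts carry counting error, which limits genes near 1 CPM. No columns were left unmapped. Replicate libraries differed by more than counting noise (chi-square per gene 2.97 to 35.3), so none was taken as the same library deposited again; this does not show separate cultures.

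The 24 alternatives covered scaling, filters, DESeq2 1.42.0, limma 3.58.1, glmTreat, the 6 libraries alone, the replicate block, offsets for GC content and length (splines with 5 degrees of freedom, 17282 genes, GENCODE lengths) and each library left out. Named genes were OGG1, the 15 largest rises and falls with groups apart and an average log2 CPM of 1 or more, the 8 largest CPM changes each way, and up to 4 members per list by p with exceptions to a list's direction. ATF4, TRIB3, MT-RNR1, MT-ND1, MT-ND6, SYP and the markers of the line were named after their values were seen. Some genes that these rules name are not reported here. The comparison, lists and rules were chosen with earlier results of these data known. Promoters are from RefSeq (GRCh38.p14), matched for 11914 tested genes.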

Additional observations from a re-analysis of the deposited data

How the results depend on the processing

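Over the 24 alternatives, calls for both compounds against DMSO numbered 4944 (a test against a fold of 1.2) to 7442 (the 6 libraries compared alone) besides the fits that left out 1 library, which gave 5129 to 8427, against 7091 in the reported test. Counts by DESeq2 were 7227 and by limma 7101 and 6854. With the replicate block 6449 genes were called, with GC and length offsets 5889, and with both 5404. Deviations of same-numbered libraries with both compounds and with DMSO correlated at -0.116, 0.044 and 0.062, and those of differently numbered ones at -0.155 to 0.116. With 3 libraries in each group these values cannot show whether the replicate numbers pair the libraries. The single compounds were not checked in this way. Against PNKP1i alone, 7944 calls became 5123 under the replicate block with GC and length offsets, and the fits that left out 1 library gave 6144 to 9036; against TH10785 alone these gave 5646 to 7584. Of the genes named, 4 rises turned to small negative values with GC and length offsets, and with offsets plus the replicate block: NPC2 (-0.059 and -0.0555), TDP2 (-0.0727 and -0.076), CDK1 (-0.0868 and -0.0931) and SKIL (-0.0742 and -0.075). The cause was not tested. Counts of list members and calls of named genes stayed within 1.5 times or on their side of the threshold in 8658 comparisons of a result with an alternative, while 373 calls were lost and 293 list counts moved further. Labels on replicates do not name cultures, so spread between cultures may be larger than that measured. Genes below the filter on low counts were not tested at this depth.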
